A study of Mus musculus with 6 samples.

Results

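GABA, the main inhibitory transmitter of the brain, is handled by 5 genes that are described here in ribosome-bound and unbound RNA of the mouse habenula. Gad1 and Gad2 encode the glutamate decarboxylases that make GABA, Slc32a1 the vesicular transporter that packs it, and Abat and Aldh5a1 the mitochondrial enzymes that break it down. The members were chosen by name, as the rows of the deposited table that carry these 5 gene symbols, and all 5 were found among the 16464 genes with a probe set. Expression was measured on 6 Affymetrix arrays. The 3 IP arrays hold RNA that was affinity purified with tagged ribosomes from cholinergic neurons of the medial habenula (translating ribosome affinity purification, TRAP), and the 3 UB arrays hold the unbound polysomal RNA left in the same 3 preparations. The tissue was habenula, dissected from adults (6 to 12 weeks old) of the line Chat DW167, a bacterial artificial chromosome line named for the gene of choline acetyltransferase. The transgene is therefore shared by both fractions, and UB stands for the whole dissected tissue, tagged cells that escaped capture included. The labels give no treatment, and no preparation from mice without the tag was analysed here. The comparison asks how far RNA of GABA-releasing cells is removed from the purified fraction, and whether the tagged neurons carry transcripts for GABA breakdown.

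As background, most neurons that release GABA carry a decarboxylase and the vesicular transporter together. Gad1 encodes the enzyme found throughout the cell, and Gad2 the one held mostly at nerve endings. Breakdown is a different matter: Abat moves the amino group of GABA to 2-oxoglutarate and gives succinate semialdehyde, which Aldh5a1 oxidizes to succinate for the citric acid cycle. This path, the GABA shunt, also runs in astrocytes and in neurons that do not make GABA. Cholinergic neurons of the medial habenula are known to release acetylcholine and glutamate.

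Levels are the deposited log2 values, and differences are IP minus UB on the log2 scale after a small offset between fractions was taken off. The RNA of GABA synthesis and packaging had next to no signal in IP: Gad1, Gad2 and Slc32a1 were all under a linear level of 50 (log2 5.64) in every IP array and above it in every UB array. Gad1 was lower by at least 30.7-fold, Gad2 by at least 3.89-fold and Slc32a1 by at least 7.60-fold. The genes of GABA breakdown were still present. Abat stood at 10.28 ± 0.08 in IP (SD, n = 3), 3.05-fold below UB, and Aldh5a1 at 9.42 ± 0.09, 1.33-fold below UB. All 5 were called lower (limma, adjusted p under 0.05), as were 43.5% of the 8960 probe sets tested. Gad1, Gad2 and Slc32a1 passed the filter through the UB arrays alone, so that they differ follows from their passing it. The 3 IP values lay below the 3 UB values without overlap for all 5, and for 46.6% of the tested probe sets. Signal of 50 or more in every UB array with none in IP held for 3 of the 5 genes and for 15.3% of the tested probe sets. Both arrays of replicate 1 stood apart from the others in the same way. Without them the differences of Gad1, Gad2, Slc32a1, Abat and Aldh5a1 were -5.80, -5.50, -6.43, -1.61 and -0.36, all still called, with a highest adjusted p of 0.0335 for Aldh5a1. In UB, which is RNA of mixed tissue, the number of cells of a type and the RNA per cell cannot be told apart. How much of each IP level was carried over from untagged cells was not tested.

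The promoters of the 3 genes of synthesis and packaging are shown because these transcripts were low together in IP. Each is a RefSeq window of 300 bases from assembly GRCm38.p6 around a start site, on the plus strand of chromosome 2. The windows are chr2:70561879-70562178 for Gad1, chr2:22622077-22622376 for Gad2 and chr2:158610508-158610807 for Slc32a1, written 5′ to 3′. Capitals mark matches to CAGNTG on either strand, a letter pattern read by many basic helix-loop-helix factors.
Gad1: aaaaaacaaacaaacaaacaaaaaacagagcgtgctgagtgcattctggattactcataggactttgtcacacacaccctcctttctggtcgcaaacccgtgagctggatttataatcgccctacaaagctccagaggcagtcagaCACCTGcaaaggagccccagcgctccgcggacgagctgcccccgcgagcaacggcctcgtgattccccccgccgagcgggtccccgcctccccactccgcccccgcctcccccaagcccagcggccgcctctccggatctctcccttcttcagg
Gad2: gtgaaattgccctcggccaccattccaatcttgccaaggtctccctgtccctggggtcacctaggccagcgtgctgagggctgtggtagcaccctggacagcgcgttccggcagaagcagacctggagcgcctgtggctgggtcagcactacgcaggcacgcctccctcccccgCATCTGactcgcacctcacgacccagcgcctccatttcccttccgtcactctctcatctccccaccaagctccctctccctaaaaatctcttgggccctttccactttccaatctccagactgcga
Slc32a1: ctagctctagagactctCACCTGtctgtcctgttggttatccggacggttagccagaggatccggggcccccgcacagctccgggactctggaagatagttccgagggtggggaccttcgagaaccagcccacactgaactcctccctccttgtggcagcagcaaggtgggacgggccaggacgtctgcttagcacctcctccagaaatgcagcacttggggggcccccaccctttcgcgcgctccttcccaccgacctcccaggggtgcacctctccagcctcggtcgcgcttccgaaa
The windows held 1 match to CAGNTG each, and so did the Aldh5a1 window (chr13:24937612-24937911, minus strand, not printed). The same letters occur in 51.4% of the 32851 windows of the table. TATAAA and GGGCGG had 1 match each in the Gad1 window and none in the Gad2, Slc32a1 and Aldh5a1 windows, against 13.6% and 35.7% of all windows. TAATTA and AGATAA, found in 5.29% and 11.2% of all windows, had no match in any of the 4. The patterns did not overlap each other. A match describes letters only, and no match says only that the letters are not in the window. The GC content was 60% for Gad1, 61.3% for Gad2, 63.3% for Slc32a1 and 60.3% for Aldh5a1, with a median of 52.7% over all windows. CG dinucleotides numbered 21, 14, 17 and 24 in the same order, with a median of 7. Abat was not matched.

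**Figure D1:**
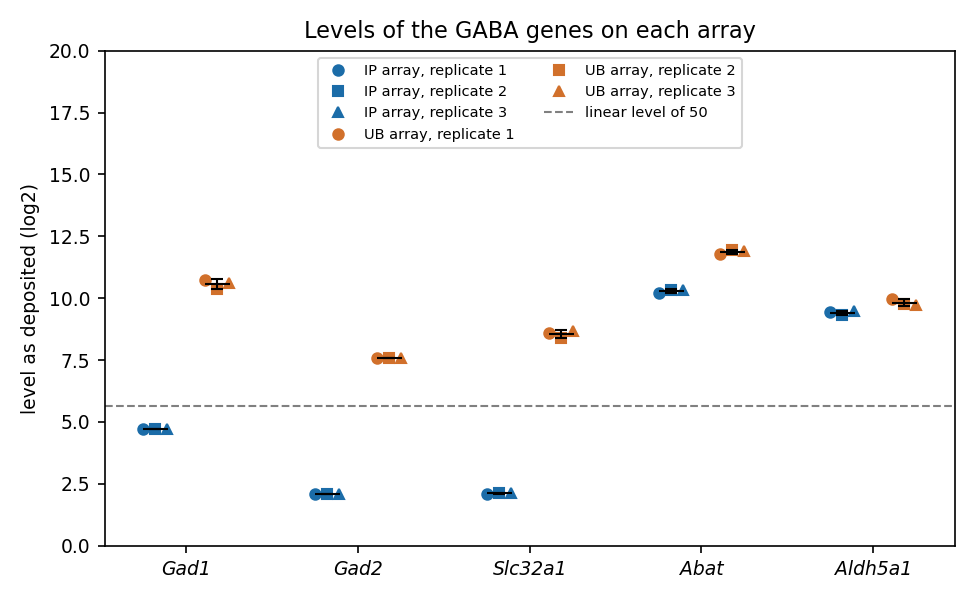
Deposited log2 level (vertical axis) of the 5 genes on each of the 6 arrays. Points are arrays, with the symbol giving the replicate number, black bars are the mean ± SD of 3 arrays, and the dashed line is a linear level of 50. Gad1, Gad2 and Slc32a1 lie below the line in IP (blue) and above it in UB (orange), while Abat and Aldh5a1 lie above it in both.

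Gad1, the decarboxylase gene with the larger share of GABA synthesis in the brain, had a level of 10.75, 10.36 and 10.60 on the UB arrays of replicates 1, 2 and 3. On the IP arrays its level was 4.70 in each of the 3. The groups were far apart, and the IP value was tied over the 3 arrays, as it was for 1789 of the tested probe sets. The fitted difference was -5.89 ± 0.11 (SE, adjusted p = 7.35e-07), and the bound against a level of 50 was -4.94. Gad1 stayed clearly above the lowest level of the IP arrays, 2.10, but under 50.

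Gad2 had a level of 7.59 on each UB array and of 2.10 on each IP array. It was therefore tied in both groups, as were 587 of the tested probe sets, and its adjusted p (9.63e-13) rests on a spread of 0 that carries no information on replicate error. The fitted difference was -5.50 and the bound against 50 was -1.96. What can be read from Gad2 is that it had signal on 3 of 3 UB arrays and on 0 of 3 IP arrays.

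Slc32a1, the gene of the vesicular transporter for GABA that is also used for glycine, had a level of 8.60, 8.39 and 8.67 on the UB arrays. On the IP arrays it stood at 2.11, 2.12 and 2.12, next to the lowest level. No IP array came near any UB array. The fitted difference was -6.46 ± 0.08 (adjusted p = 1.64e-07), and the bound was -2.93. Since the IP levels of all 3 of these genes were under 50, the order of their fitted differences has no meaning, and the order of their bounds follows their UB levels alone.

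Abat, the GABA transaminase gene, had a level of 11.79, 11.94 and 11.91 on the UB arrays and of 10.19, 10.33 and 10.33 on the IP arrays. The groups did not overlap, and all 6 arrays were far above 50. The difference was -1.61 ± 0.06 (adjusted p = 1.34e-05), and within the 3 preparations it was -1.61, -1.63 and -1.59. Of the tested probe sets, 19.9% had a lower difference than Abat. Under all-gene median scaling, which equalizes the medians over the whole table and raises IP by 1.56 against UB, Abat differed by only -0.053 and was not called (adjusted p = 0.490).

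Aldh5a1, the succinate semialdehyde dehydrogenase gene, had a level of 9.97, 9.76 and 9.71 on the UB arrays and of 9.46, 9.32 and 9.47 on the IP arrays. The IP arrays were all lower, and the highest of them was close to the lowest UB array. The difference was -0.41 ± 0.09 (adjusted p = 0.0107), and the values within preparations were -0.53, -0.46 and -0.26. Of the tested probe sets, 42.3% had a lower difference than Aldh5a1, whose value lay not far below the median of all tested probe sets, -0.17. The call was lost with both arrays of replicate 2 or of replicate 3 left out (adjusted p = 0.0826 and 0.0552), with a separate control offset for each array (0.235) and under tested-gene median scaling, which equalizes the medians over the tested probe sets (0.551, difference -0.075). Under all-gene median scaling, Aldh5a1 was higher in IP by 1.14. The direction for Aldh5a1 thus rested on the scaling. Gad1, Gad2 and Slc32a1 were lower under every scaling run (highest fitted differences -4.33, -3.94 and -4.90). These fitted values rest on IP levels under 50, and that the 3 genes differ follows from their passing the filter. Their bounds against 50 under the main scaling, -4.94, -1.96 and -2.93, were larger in size than the 1.56 shift of all-gene median scaling, that of Gad2 by little.

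**Figure D2:**
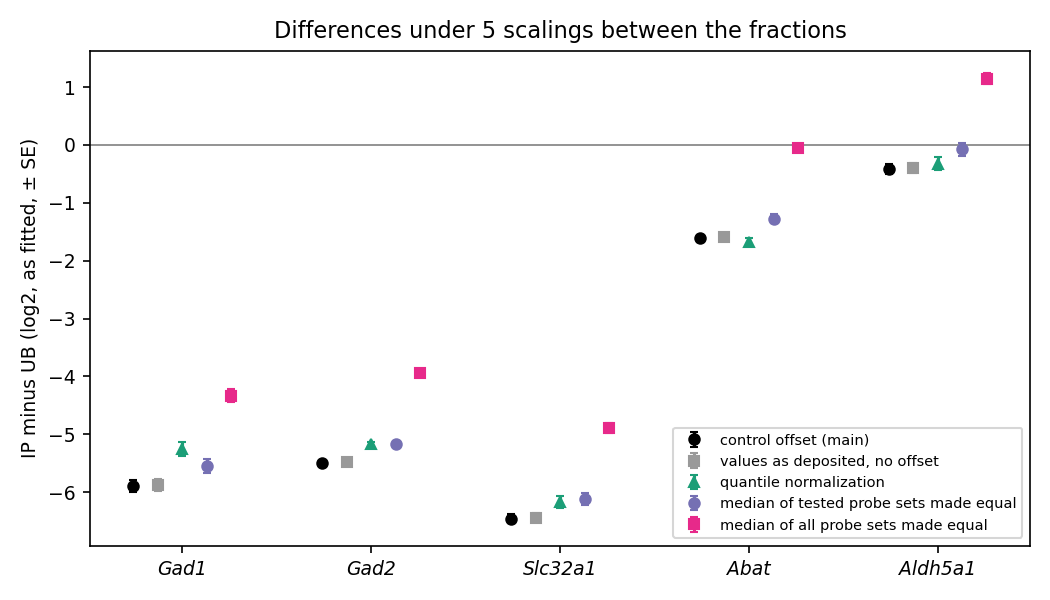
Fitted IP minus UB difference (log2, vertical axis) of the 5 genes under 5 scalings between the fractions, with bars for ± SE. Gad1, Gad2 and Slc32a1 stay between -6.46 and -3.94, Abat reaches -0.053 and Aldh5a1 crosses 0 to 1.14 under all-gene median scaling.

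Differences between 2 genes within an array do not rest on an offset between the fractions, so the 10 pairs of members were compared in this way. Abat minus Aldh5a1 changed by -1.20 from UB to IP. The arrays gave 0.73, 1.01 and 0.86 in IP and 1.82, 2.18 and 2.19 in UB, without overlap, so Abat was reduced more than Aldh5a1 on these arrays. The exact two-sided permutation test gave p = 0.1, also after Benjamini-Hochberg adjustment over the 10 pairs. This is the smallest p that 3 against 3 arrays allow, so no pair can reach 0.05. With levels under 50 raised to 50, Gad1 minus Abat changed by -3.33 and Gad1 minus Aldh5a1 by -4.53, so Gad1 was reduced more by at least these amounts. For Slc32a1 the changes were -1.32 against Abat and -2.51 against Aldh5a1, and for Gad2 -0.35 and -1.55. The order within Gad1, Gad2 and Slc32a1 cannot be read, and the Gad1 minus Slc32a1 change went from 0.57 as deposited to -2.02 with raised levels.

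The 3 tested genes with the most similar profile were found for each member, as the smallest root mean square difference over the 6 arrays after each of 8603 genes was centred on its own mean. Gad1, Gad2, Slc32a1 and their nearest genes were compared partly on IP levels under 50, which have no order, so their neighbours are named as found and nothing is read from them. For Gad1 these were Defb1, Lypd6 and Spink10 (0.083, 0.085 and 0.092 on the log2 scale). For Gad2 they were Nr2f1, Olig2 and Nr3c1 (0.0020, 0.0087 and 0.010), whose values within a group were tied or nearly tied as well. For Slc32a1 they were Rasl11b, Herc3 and Medag (0.060, 0.070 and 0.071). For Abat they were Cyp2j6, Btaf1 and Nsdhl (0.046, 0.047 and 0.052), and for Aldh5a1 Wdr75, Tdrd7 and 5730455P16Rik (0.039, 0.041 and 0.047). Cyp2j6 too was under 50 in IP. Within 0.1 of the member lay 108 genes for Abat and 156 for Aldh5a1, so such profiles were common.

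Markers of GABA-releasing neurons were low in IP beside Gad1, Gad2 and Slc32a1. The list has 17 genes with a probe set, and 16 of them were under 50 on every IP array. In UB 11 were under 50 throughout. Of the 5 that passed the filter 4 were called lower and 0 higher, beside 43.5% and 30.9% of all tested probe sets. These 4 passed it through UB alone, so their count is no support. Pvalb, the parvalbumin gene of fast-spiking and reticular thalamic neurons, had a level of 10.83, 9.36 and 10.30 in UB and of 4.57, 4.40 and 4.40 in IP, at least 23.2-fold lower. The peptide gene Sst was lower by at least 5.87-fold and Npy by at least 3.45-fold. Tal1, a selector gene of midbrain and brainstem GABA neurons that is also active in blood and vessel cells, was at least 1.32-fold lower, which was no longer called once dim levels were raised to 50 (adjusted p = 0.102). Reln, which encodes reelin and is made by many kinds of neurons, stood at 9.15 ± 0.07 (IP) and 8.75 ± 0.29 (UB), which was not called (adjusted p = 0.0818). Reln was called higher under all-gene median, tested-gene median and quantile scaling (1.95, 0.73 and 0.62) and without UB replicate 2 (0.51). Dlx1, Dlx2, Dlx5, Lhx6, Sox14 and Erbb4 were at the lowest level on all 6 arrays. Gata2, Gata3, Six3, Vip and Dlx6 were under 50 on all 6, and Meis2 reached 50 on 1 UB array only. Summed over the 17 markers, the linear level was 635 to 687 in IP, most of it Reln, and 1980 to 2896 in UB.

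Other cells of the brain are known to carry Abat and Aldh5a1 as well, so their markers are set beside them. The summed linear level of the 10 astrocyte markers with a probe set was 1047 to 1396 in IP and 23204 to 28569 in UB. Of the 10, 8 were under 50 on all IP arrays, Aqp4, Gfap, Slc1a2, Slc1a3, S100b and Aldh1l1 among them, and Gja1 and Aldoc were not. Aldoc, an aldolase gene strong in astrocytes, made up most of the IP sum, with 9.83, 10.01 and 10.31 in IP and 13.85, 14.16 and 14.07 in UB, a 15.9-fold decrease. All 9 tested astrocyte markers were called lower, beside 43.5% of all tested probe sets, but 7 of them passed the filter through UB alone. The gap-junction gene Gja1 was 57.7-fold lower, and S100b at least 29.8-fold lower. Of the oligodendrocyte markers, 5 of the 7 with a probe set were under 50 on all IP arrays (summed linear level 271 to 334 in IP and 20125 to 22704 in UB). The myelin gene Mbp was 89.8-fold and Ermn at least 57.5-fold lower. Of the thalamic markers Rora was 39.1-fold and Necab1 at least 33.4-fold lower. All 7 tested genes of both lists were called lower, beside the same 43.5%, with 5 and 3 of them admitted through UB alone. In the other lists the microglial genes Ctss and Csf1r were 50.9-fold and at least 3.82-fold lower, the precursor genes Gpr17 and Pdgfra at least 4.79-fold and at least 1.42-fold, the mural gene Acta2 at least 4.96-fold, and the ependymal and choroid plexus genes Ccdc153 and Ttr at least 56.2-fold and 12.1-fold. C1qa, the 1 tested microglial gene not called (adjusted p = 0.120), went the other way. It had a level of 7.58, 7.83 and 7.90 in IP and of 6.00, 7.49 and 7.14 in UB. The neuronal genes Syt1 and Stmn2 were 3.27-fold and 2.80-fold lower, at -0.15 and 0.071 on the log2 scale under all-gene median scaling, and the Syt1 call (adjusted p = 0.0272) was lost in most fits with arrays left out (adjusted p up to 0.195). Of the 6 tested neuronal genes, 4 were called lower, 1 higher and 1 not at all, beside 43.5% lower and 30.9% higher over all tested probe sets. The gene called higher was Rbfox3, by 1.84-fold (adjusted p = 0.000152). The 3.05-fold difference of Abat lay between those of Stmn2 and Syt1, the 2 neuronal genes that fell most. Tubb3, Snap25 and Eno2 (not called) were 1.92-fold, 1.43-fold and 1.42-fold lower, so only Syt1 of the neuronal list fell more than Abat. The 1.33-fold difference of Aldh5a1 was smaller than all of these decreases. Abat and Aldh5a1 differed less than Gja1, Mbp and Rora, which were among the genes of their lists that changed most. The thalamic marker Tcf7l2, the least reduced of its tested list, was 2.39-fold lower, less than Abat but more than Aldh5a1. How much of the IP level of Abat and Aldh5a1 came from such cells was not tested. All 10 measured markers of cholinergic neurons of the medial habenula were called higher, as were 30.9% of all tested probe sets. However, 2 of them, Slc18a3 included, passed the filter through IP alone, so their calls follow from their passing it. Slc18a3, the vesicular acetylcholine transporter gene, was at least 68.8-fold and the nicotinic receptor gene Chrna3 16-fold higher.

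Other genes of GABA metabolism were listed by role. Of 37 listed, 31 had a probe set and 24 were tested, of which 11 were called lower, 5 higher and 8 not at all (43.5% lower and 30.9% higher over all tested probe sets). Adhfe1 and Aldh1a1, both called lower, passed the filter through UB alone, so their calls follow from their passing it. The median of the 24 tested genes was -0.12, close to that of all tested probe sets.

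None of the genes of GABA uptake and release passed the filter. Slc6a11, the astrocyte transporter GAT3, was at the lowest level on all 3 IP arrays and had 4.67, 5.03 and 4.97 in UB. Slc6a13, which encodes GAT2 of the meninges and vessels, was at 2.10 in IP and had 3.41, 4.81 and 4.40 in UB. Best1, a chloride channel gene linked to GABA release from glia, had a level of 2.55 throughout IP and of 5.37 throughout UB. Slc6a12 was at the lowest level on all 6 arrays. All of these levels were under 50, so no fold can be given.

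Of 5 tested genes that supply glutamate, the substrate of the decarboxylases, 4 were called lower and 0 higher, beside 43.5% and 30.9% of all tested probe sets. Glul, the glutamine synthetase gene of astrocytes, had a level of 13.79, 13.45 and 13.45 in UB and of 11.21, 10.47 and 10.47 in IP, a 7.27-fold decrease. Glud1, the glutamate dehydrogenase gene, was 3.78-fold lower (adjusted p = 4.35e-05). Slc38a1, which encodes a glutamine carrier of neurons, was 2.30-fold lower and the related Slc38a2 1.55-fold lower, and both were higher under all-gene median scaling (0.36 and 0.92). The Slc38a2 call was also lost with an offset for each array (adjusted p = 0.0558). Got1, the cytosolic aspartate aminotransferase gene, stood at 12.49 ± 0.47 (IP) and 12.64 ± 0.18 (UB), which was not called (adjusted p = 0.602). Glul and Glud1 kept their direction under every alternative run. Slc38a3, a glutamine carrier gene of astrocytes, was at 2.10 in IP and reached 50 on 1 UB array (4.56, 5.94 and 5.61), and Slc38a5 was at the lowest level throughout.

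Pyridoxal phosphate is the cofactor of Gad1, Gad2 and Abat. Pdxk, the kinase gene that makes it, was near the limit of 50 in IP at 5.69 on all 3 arrays and at 6.20, 6.63 and 6.30 in UB. It was called lower (difference -0.70 ± 0.12, adjusted p = 0.00481), but was higher under all-gene median scaling (0.85) and quantile normalization (0.32), and without the third preparation it was no longer called (adjusted p = 0.0627). Pdxp, the phosphatase gene that breaks it down, was not called (0.26 ± 0.22, adjusted p = 0.338), but a fit blocked on preparation called it higher (adjusted p = 0.0211), with differences of 0.31, 0.31 and 0.16 within the preparations.

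Succinate semialdehyde, the product of Abat, can be reduced to gamma-hydroxybutyrate instead of being oxidized by Aldh5a1. Akr7a5, a reductase gene for this step in the mouse, rose in IP. It had a level of 10.11, 10.18 and 10.22 in IP and of 8.92, 8.95 and 8.95 in UB, a 2.32-fold increase (difference 1.21 ± 0.04, adjusted p = 4.78e-06). The groups lay well apart, and Akr7a5 was higher under every alternative run. Akr1a1, a general aldehyde reductase gene, was 1.24-fold higher, at 15.42, 15.40 and 15.55 in IP and 15.17, 15.13 and 15.10 in UB, but that call was lost with quantile normalization (adjusted p = 0.519) or an offset for each array (0.362). Adhfe1, which encodes the enzyme that oxidizes gamma-hydroxybutyrate back, lay at the lowest level throughout IP and at 6.31 throughout UB, at least 1.60-fold lower. That bound, -0.68 on the log2 scale, is smaller than the shift of all-gene median scaling.

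**Figure D3:**
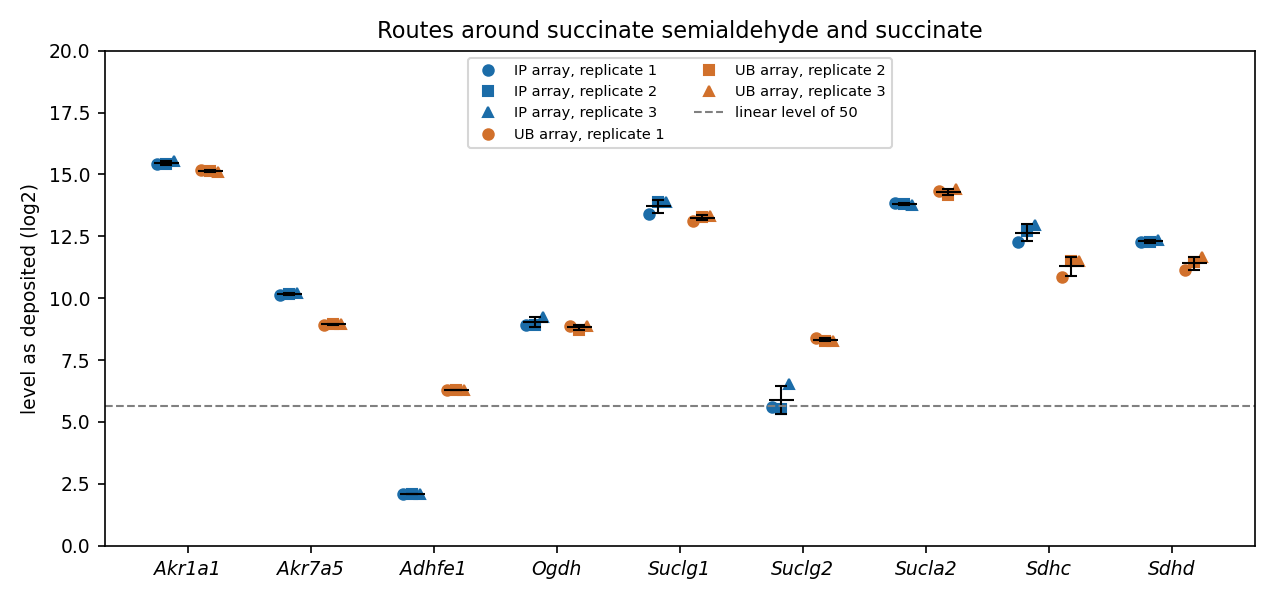
Deposited log2 level (vertical axis) of genes around succinate semialdehyde and succinate on each of the 6 arrays, with points, bars and dashed line as for the members. Akr7a5, Sdhc and Sdhd are higher in IP (blue), Adhfe1 and Suclg2 fall to or near the line or below it in IP, and the other genes lie close together in both fractions.

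The end product of the shunt, succinate, is made in the citric acid cycle as well. Of 10 genes of that stretch, 2 were called lower, 2 higher and 6 not, beside 43.5% lower and 30.9% higher over all tested probe sets. Suclg2, the subunit gene of the GTP-forming succinyl-CoA ligase, was 5.45-fold lower, at 5.62, 5.51 and 6.52 in IP and 8.38, 8.29 and 8.27 in UB. Sucla2, which encodes its ATP-forming counterpart, was 1.42-fold lower (difference -0.51 ± 0.07) and higher by 1.05 under all-gene median scaling. Its call was lost with an offset for each array (adjusted p = 0.126) and under tested-gene median scaling (0.169, difference -0.17). Sdhc and Sdhd, the membrane anchor genes of succinate dehydrogenase, were 2.53-fold and 1.82-fold higher. The calls of Sdhc were lost with both arrays of replicate 2 or 3 left out (adjusted p = 0.0829 and 0.0707), and that of Sdhd without replicate 2 (adjusted p = 0.0633). Ogdh, Dlst and Dld of the 2-oxoglutarate dehydrogenase complex, the step that the GABA shunt bypasses, were not called (0.19, 0.27 and -0.072), nor were Suclg1, Sdha and Sdhb (0.45, 0.077 and 0.42). The fit blocked on preparation called Suclg1 and Sdhb higher (adjusted p = 0.0264 and 0.0109), as did the fit without the arrays of replicate 1 (adjusted p = 0.000622 and 0.026). Their differences within the 3 preparations were 0.25, 0.56 and 0.53 for Suclg1 and 0.44, 0.31 and 0.52 for Sdhb, and both were also called under all-gene and tested-gene median scaling, under which Ogdh, Dlst and Sdha were called higher too.

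GABA can also be made from putrescine, a path known from glia and some dopamine neurons. Odc1, the ornithine decarboxylase gene that makes putrescine, rose 1.95-fold in IP (from 8.24 ± 0.07 to 9.23 ± 0.02, adjusted p = 2.24e-05). The genes of the later steps went the other way. Maob, a monoamine oxidase gene of astrocytes and serotonin neurons, was 22.9-fold lower, at 7.35, 7.22 and 7.24 in IP and 11.91, 11.52 and 11.89 in UB. Aldh1a1, an aldehyde dehydrogenase gene, was at least 36.2-fold lower, at 2.15 on all 3 IP arrays and 10.95, 10.73 and 10.73 in UB. Aldh9a1, whose enzyme oxidizes aminobutyraldehyde to GABA, was 2.11-fold lower (adjusted p = 0.0210), a call lost without IP replicate 2 or 3, without UB replicate 1 and with both arrays of replicate 2 or 3 left out (adjusted p from 0.0533 to 0.134), and it was higher by 0.48 under all-gene median scaling. Dao, listed with these genes, encodes D-amino acid oxidase, which does not act on putrescine. It was at the lowest level on all 6 arrays.

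**Figure D4:**
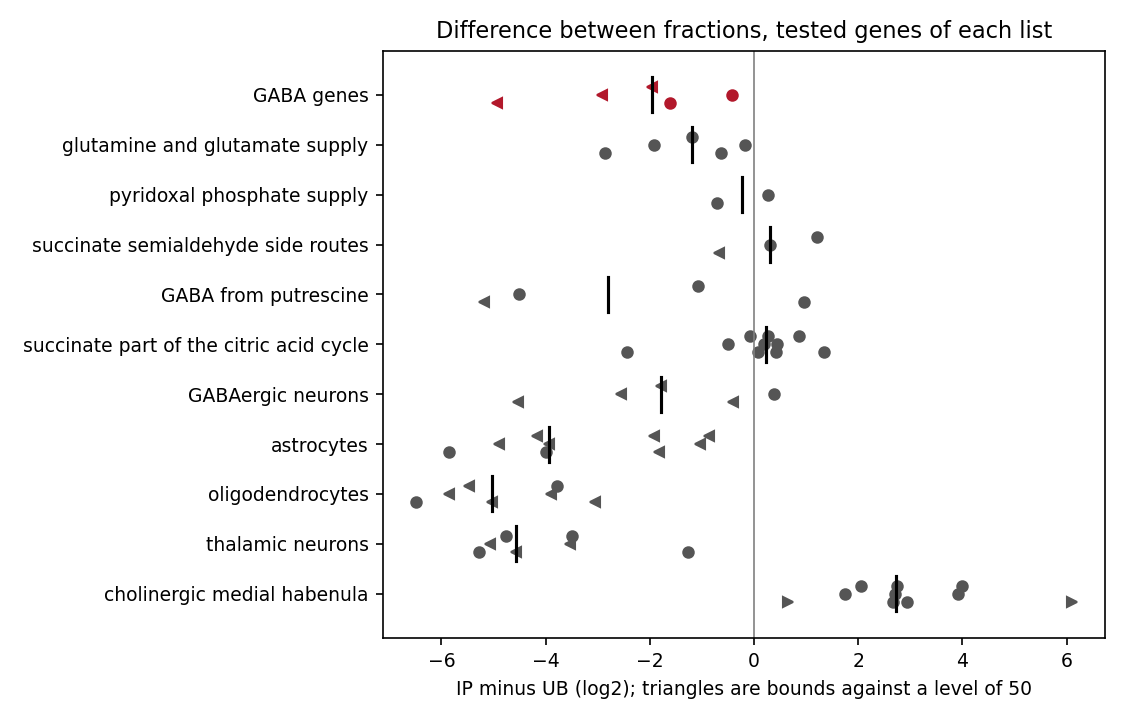
IP minus UB difference (log2, horizontal axis) of each tested gene in the GABA genes (red) and in 10 lists (grey). Circles are measured differences, triangles are bounds against a level of 50 that point away from 0, and vertical bars are list medians. The GABA genes spread from -4.94 to -0.41, the markers of cholinergic neurons of the medial habenula all lie above 0, and the glial and thalamic lists below it.

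The 6 arrays limit the precision of every value. Each IP array had 7533 to 7579 probe sets with a signal of 50 or more, and each UB array 8618 to 8659. Nothing says whether a preparation came from 1 animal or a pool.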

How the data were processed

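Expression was measured on 6 arrays, 3 IP and 3 UB, from 20 ng of RNA each, and samples were grouped by their titles. The authors deposited log2 values made with GCRMA, per the submitters' processing notes, which corrects background, normalizes by quantiles and summarizes 1 probe set per gene. No source used here gives its version. Replicates were normalized within groups, per the labels of the series, and 50.6% of probe sets were tied over the IP arrays and 47.7% over the UB arrays. Of 17370 rows, 64 were controls and 16464 had a gene symbol. All 16464 matched RefSeq gene identifiers (GRCm38.p6, used for names).

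The offset between fractions (0.016 on the log2 scale, the mean of 18 biotinylated control probe sets) was subtracted from IP. Probe sets at a linear level of 50 or more on at least 3 of 6 arrays, 8960, were tested with limma 3.58.1 in R 4.3.3 (variance trend, two-sided, Benjamini-Hochberg over all tested). Without adjustment, 6859 had p under 0.05. Where a group was under 50 on all its arrays, the fold is a bound against 50. The fit was tested on simulated data. Other steps ran in Python 3.11.15 (pandas 2.3.3, numpy 2.4.6), with figures from matplotlib 3.10.9.

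IP and UB of 1 number come from the same preparation, per the labels, and their deviations from group means correlated at 0.66, 0.54 and 0.31 over 6180 untied probe sets. IP 3 correlated with UB 2 at 0.35 and IP 2 with UB 3 at 0.28, so the pairing of numbers 2 and 3 comes from the labels. Both arrays of replicate 1 stood apart from those of replicates 2 and 3. P-values of the main fit measure the spread between the arrays of these preparations within a fraction. Where a probe set was tied over a group, that spread was 0 and carries no information on replicate error in that group.

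The members and lists were chosen with earlier results of these data known. Named were the members, all listed genes of GABA metabolism and of GABA neurons with a probe set, the 2 tested genes of other marker lists that changed most, and the 3 nearest profiles per member. The remaining marker genes named were chosen after their values were seen. Alternatives were other scalings, filters and variance models, raised dim levels, tied probe sets left out, the replicate block and arrays left out. Some marker genes were not analysed here.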

Additional observations from a re-analysis of the deposited data

How the results depend on the processing

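Gad1, Gad2 and Slc32a1 stayed lower and called under all alternatives run, with fitted differences from -5.99 to -4.33, from -5.50 to -1.96 and from -6.54 to -2.93. They passed the filter through UB alone, so that they stayed lower is no support. Gad2, tied in both groups, has no value with tied probe sets left out. Under all-gene median scaling, the calls over all probe sets were 6680 higher against 1587 lower (2772 against 3900 as reported), and without a filter 8557 against 5998. Abat was at -0.053 under that scaling. Aldh5a1 turned to 1.14 under it, lost its call at -0.075 under tested-gene median scaling and at -0.41 with the control offset per array, and ranged from -0.49 to -0.33 with arrays left out. With the replicate block, Aldh5a1 was called (adjusted p = 0.0208), and the calls over all probe sets were 2911 higher against 3963 lower. Among the named genes with alternatives, the only calls that the block changed were those of Pdxp, Suclg1 and Sdhb, which it added. Leaving out arrays gave 1993 to 2958 higher and 3199 to 3964 lower calls. The Gad1 minus Slc32a1 change was -2.02 with levels under 50 raised to 50. Reversals under all-gene median scaling were Slc38a1 (0.36), Slc38a2 (0.92), Got1 (1.39), Pdxk (0.85), Aldh9a1 (0.48), Dld (1.49), Sucla2 (1.05) and Stmn2 (0.071). Under tested-gene median scaling they were Got1 (0.17) and Dld (0.27), and with quantile normalization Pdxk (0.32) and Sdha (-0.19). Arrays left out turned Got1 (0.052) and Dld (0.016, 0.017 and 0.063, in a range of -0.21 to 0.063), and Got1 ranged from -0.41 to 0.052. The cause of these reversals was not tested beyond the shift each scaling makes. Of the other values of single genes, 25 lost a call, 26 gained one and 846 kept theirs. Levels under 50 limit Gad1, Gad2 and Slc32a1 to bounds.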
